A study of Homo sapiens with 16 samples.

Results

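Polyamine metabolism was followed through 7 genes in MCF10HER2 cells, a human breast epithelial line made from MCF10A by stable over expression of HER2, the receptor tyrosine kinase encoded by ERBB2. The 7 genes were chosen by name, 4 for synthesis (ODC1, AMD1, SRM and SMS) and 3 for antizyme control and catabolism (OAZ1, OAZ2 and SAT1), out of 18190 gene symbols on the array. Parallel cultures in insulin-free, serum-free medium with EGF and hydrocortisone received CP724,714, an inhibitor of the HER2 kinase, at 1 µM, and RNA was taken every 3 h from 0 to 45 h. The culture at 0 h was the only untreated one, and the other 15 cultures were treated for 3 to 45 h. Each of the 16 time points had 1 array and no replicate, no vehicle-treated culture was analysed here, and fresh medium was given at the start of treatment, so effects of the inhibitor, the medium change and time in culture cannot be told apart. MCF10HER2 is 1 transduced line that carries the HER2 transgene at every time point, and the EGF of the medium was present throughout.

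Polyamines are small, positively charged molecules that bind nucleic acids and that growing cells need for translation. Ornithine decarboxylase, made from ODC1, forms putrescine from ornithine in the rate-limiting step. AMD1 encodes S-adenosylmethionine decarboxylase, whose product supplies the aminopropyl groups that the synthases SRM and SMS add in turn to make spermidine and spermine. The antizymes OAZ1 and OAZ2 bind ornithine decarboxylase, send it to the proteasome and restrain polyamine uptake, and polyamines themselves raise antizyme translation through programmed ribosomal frameshifting. SAT1 acetylates spermidine and spermine, which leads to their export or oxidation. ODC1 is a textbook transcriptional target of MYC, and much of the control over ODC1, AMD1, the antizymes and SAT1 acts on translation and protein stability, which an RNA array does not measure.

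The values are log2 probe intensities after background correction and quantile normalization, and a difference of 1 is a 2-fold difference. All 7 genes were detected on all 16 arrays (detection p under 0.05). SAT1 stands in the table under its older symbol SAT, and AMD1 alone among the 7 had another tested probe. Of 7 breast epithelial markers, 6 were detected on 14 or more arrays, the exception being KRT14 on 1 array, while 2 of 10 markers of fibroblasts, immune and endothelial cells were (CD68 and PECAM1). The number of probes detected per array ran from 10363 to 11436. The background signal was 135.9 to 148.9 on the 8 arrays from 0 to 21 h and 164.5 to 173.9 on the 8 arrays from 24 to 45 h. The labels name no chip or batch, so trends are also given within each set of 8 arrays. The arrays at 9 h and 18 h were dimmer, with upper quartile intensities of 397 and 418 against 553 to 804 on the others.

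The promoters of the 3 genes that fell and of SAT1, which took another course, are shown because ODC1 is a known MYC target and MYC binds the E-box CACGTG. The sequences are the 250 bases before a transcription start in RefSeq (GRCh38.p14), 5′ to 3′ on the gene's strand, with each CACGTG in capitals.
ODC1 (chr2:10448328-10448577, minus strand): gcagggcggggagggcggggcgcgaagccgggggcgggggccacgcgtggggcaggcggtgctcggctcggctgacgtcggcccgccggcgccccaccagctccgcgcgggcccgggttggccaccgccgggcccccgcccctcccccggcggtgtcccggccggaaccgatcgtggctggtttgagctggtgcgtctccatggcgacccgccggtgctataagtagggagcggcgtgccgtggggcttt
SRM (chr1:11060019-11060268, minus strand): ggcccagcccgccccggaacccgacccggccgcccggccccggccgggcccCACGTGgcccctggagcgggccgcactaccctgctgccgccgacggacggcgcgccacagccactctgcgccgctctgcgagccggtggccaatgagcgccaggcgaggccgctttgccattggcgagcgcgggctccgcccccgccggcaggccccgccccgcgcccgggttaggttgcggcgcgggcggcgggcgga
AMD1 (chr6:110874535-110874784, plus strand): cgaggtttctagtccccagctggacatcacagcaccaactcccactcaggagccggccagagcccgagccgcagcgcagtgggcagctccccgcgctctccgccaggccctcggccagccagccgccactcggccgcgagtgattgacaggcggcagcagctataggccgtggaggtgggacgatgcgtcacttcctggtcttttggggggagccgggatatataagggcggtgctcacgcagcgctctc
SAT1 (chrX:23782923-23783172, plus strand): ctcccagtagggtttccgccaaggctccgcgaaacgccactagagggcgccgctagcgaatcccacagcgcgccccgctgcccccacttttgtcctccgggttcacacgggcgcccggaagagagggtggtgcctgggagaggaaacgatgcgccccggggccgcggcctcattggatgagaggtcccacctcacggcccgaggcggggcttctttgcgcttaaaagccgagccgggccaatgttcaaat
Of these 4 stretches the SRM promoter alone held the E-box, with its first base at position -199 from the start. ODC1 has a second annotated start, and its window of 250 bases before to 50 after that start held the motif at 2 places, with first bases at positions -29 and 5. Both are shown with 12 bases on either side.
ODC1 (chr2:10448024-10448053, minus strand): ccgggccccgggCACGTGtgcggcgcgcct
ODC1 (chr2:10447990-10448019, minus strand): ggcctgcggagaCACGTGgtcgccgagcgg
In all, 10 such windows cover the starts of the 7 genes, and 2 of the 10 held CACGTG, against 7.26% of 35116 windows of the same length in the RefSeq table. The AMD1 windows begin at chr6:110814367, 110874534 and 110874535. The last 2 are nearly the same stretch, so the 10 windows are not independent. By gene, 2 of the 7 had CACGTG, against 8.77% of 27305 genes. The other 5 genes had no CACGTG in their windows. The GC box GGGCGG, read on both strands, was in 9 of the 10 windows and missing for SAT1, against 45.0% of all windows. By gene it was found for 6 of the 7, against 48.3% of all genes. The CCAAT box was in 5 of the 10 windows, 1 each for AMD1, SRM, SMS, OAZ1 and SAT1, against 34.6% of all windows, and the TATA motif TATAAA in 1, for OAZ1, against 11.5%. The OAZ1 match does not lie in the 250 bases before the start. Only the exact letters were counted, and the ODC1 and AMD1 stretches above hold the near match TATAAG. Neither TGATGNAA, a composite motif bound by ATF4 and C/EBP factors, nor the cyclic AMP response element TGACGTCA occurred in the windows of the 7 genes, and 3.62% and 1.85% of all windows held them. These matches describe letters only. ODC1 lies at chr2:10439968-10448327, SRM at chr1:11054589-11060018, AMD1 at chr6:110814617-110895713, OAZ2 at chr15:64687574-64703281 and OAZ1 at chr19:2269486-2273488. SMS, at chrX:21940709-21994837, and SAT1, at chrX:23783173-23786210, are both on the X chromosome.

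The first comparison asked which of the 7 transcripts changed with time. ODC1, SRM and AMD1 fell, SMS and OAZ2 did not pass the test, OAZ1 moved within a narrow range after quantile normalization, and SAT1 dipped and came back. In limma's test of a smooth spline curve over time, 5 of the 7 passed an adjusted p of 0.05 (ODC1, AMD1, SRM, OAZ1 and SAT1), where 41.9% of the 12321 tested probes did. A straight line in time passed for 3 of the 7, all lower with time, where 24.4% of tested probes passed in either direction and 11.5% passed as lower. The threshold of 1.7-fold against 0 h at any time point, which has no error term here, was reached by 4 of the 7, all below 0 h (ODC1 at 13 time points, AMD1 and SRM at 10 each, SAT1 at 2), where 19.5% of tested probes reached it, 9.47% below and 10.9% above 0 h. The median linear change over 45 h was -1.09 for the 4 synthesis genes and -0.04 for the 3 antizyme and catabolism genes, beside -0.0022 for all tested probes. In RNA from whole cultures, fewer cells that express a gene and less RNA per cell cannot be told apart.

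**Figure D1:**
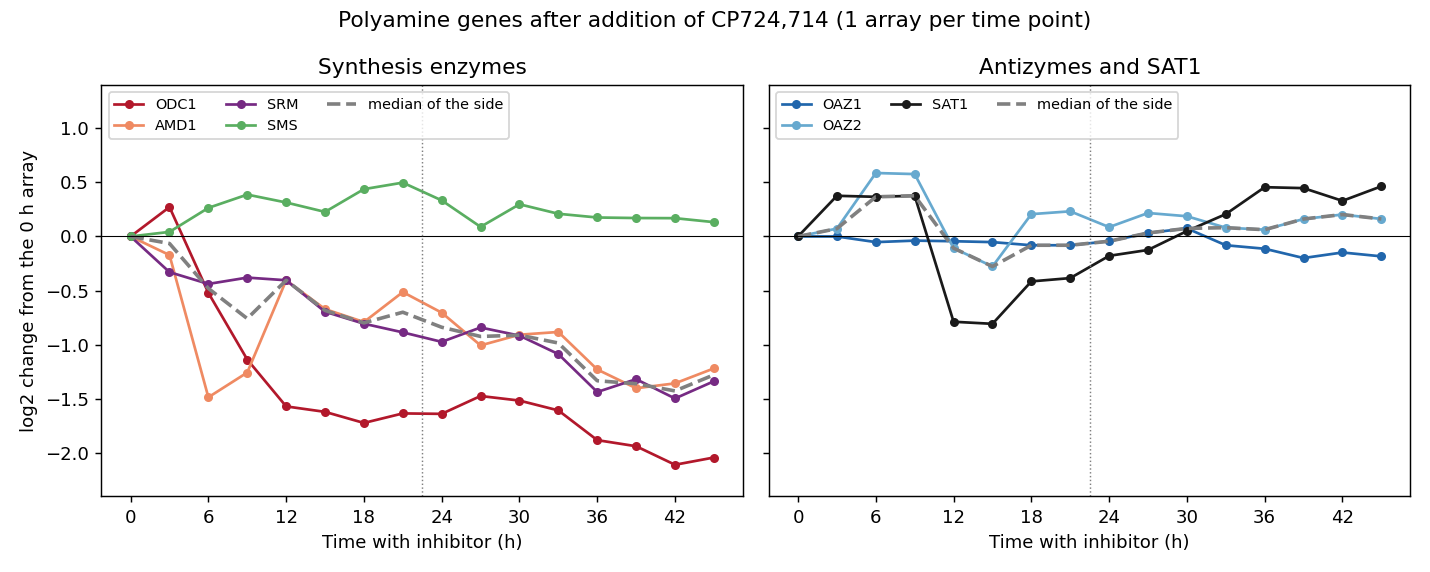
The log2 change of each gene from the untreated 0 h array is plotted against hours with the inhibitor, for the 4 synthesis enzymes on the left and for the antizymes and SAT1 on the right, with 1 point per array, the median of the genes of a panel as a dashed line and a dotted line between the 2 sets of 8 arrays. At 45 h the change from 0 h was -2.04 for ODC1 and 0.46 for SAT1.

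ODC1, the rate-limiting enzyme, gave the largest change of the 7. At 0, 3, 6, 9 and 12 h its log2 intensity was 12.21, 12.49, 11.69, 11.08 and 10.64. It lay between 10.49 and 10.74 at all time points from 15 to 33 h, and at 10.33, 10.28, 10.11 and 10.17 from 36 to 45 h. The fall was therefore made up of a steep part between 3 h and 12 h, a level stretch and a smaller step down. Neighbouring arrays also differed more at those steps over all tested probes. Their root mean square step was 0.23 to 0.33 for the steps to 6, 9 and 12 h and 0.21 for that to 36 h. It was 0.09 to 0.17 for the steps to 15 through 33 h. The part of these differences in the course of ODC1 was not tested. The 3 h and 42 h arrays differed 5.21-fold, and 45 h was 4.12-fold below 0 h. The spline passed with an adjusted p of 2.11e-06 (limma), and the straight line fell by 1.83 over 45 h (SE 0.30, adjusted p 0.000266). The range of ODC1 over the arrays was larger than that of 99.2% of tested probes, whose median range was 0.42. The scatter of the arrays about the curve was 0.21 (residual SD), and the curve followed the first 2 arrays least well, at 12.59 and 12.04.

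SRM, spermidine synthase, declined more evenly. Its log2 intensity started from 10.84 untreated and lay between 10.40 and 10.51 from 3 h to 12 h. It was 10.15, 10.04 and 9.96 at 15, 18 and 21 h, and 9.87, 10.00, 9.93 and 9.75 from 24 to 33 h. The last 4 arrays gave 9.40, 9.52, 9.34 and 9.50. All 15 treated cultures were below 0 h, and the 4 values from 36 to 45 h did not overlap any earlier ones, which also held for ODC1. The share of all tested probes with that pattern was not counted. The largest step of SRM, -0.35, was from 33 h to 36 h, where neighbouring arrays also differed more over all tested probes than at the later steps. The line fell by 1.33 over 45 h (SE 0.12, adjusted p 1.21e-06, limma), the spline passed at 1.33e-05, and the 45 h value was 2.53-fold below 0 h. Its residual SD of 0.13 was below those of ODC1 and AMD1.

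AMD1, S-adenosylmethionine decarboxylase, fell early, came back and fell again. At 0, 3, 6 and 9 h the log2 intensity was 11.42, 11.25, 9.94 and 10.16. It stood at 11.02 by 12 h, and the next arrays (15, 18 and 21 h) gave 10.75, 10.63 and 10.91. It then went from 10.72 at 24 h to 10.42, 10.51 and 10.54 at 27 to 33 h and 10.19, 10.02, 10.06 and 10.20 at 36 to 45 h. The lowest array, 6 h, was 2.80-fold below 0 h, and 45 h was 2.33-fold below it. The step of -1.31 from 3 h to 6 h was the largest of any member between neighbouring arrays. The spline does not follow so sharp a dip, which leaves a residual SD of 0.34. The spline passed with an adjusted p of 0.0288 and the line fell by 0.84 over 45 h (SE 0.28, adjusted p 0.0340, limma). Both calls were close to the threshold. The spline call was lost without the 0 h (adjusted p 0.160), 3 h (0.111) or 21 h (0.0527) array, and the linear call without any of 7 of the 16 arrays, with an adjusted p up to 0.135 (without 0 h). The other AMD1 probe also fell, by 0.42 over 45 h (SE 0.10, adjusted p 0.00400, limma), and its 12 h value was 0.011 above that of 0 h. That probe was dimmer, with intensities from 299 to 632. It was lowest at 42 h, not 6 h, at 1.46-fold below 0 h, so it reached 1.7-fold at 0 time points. Its largest step, -0.35, was also from 3 h to 6 h.

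SMS, spermine synthase, passed neither test. Its log2 intensity was 12.57 untreated, had its maximum of 13.07 at 21 h and ended on 12.71. All 15 treated arrays lay above 0 h after quantile normalization, within a range of 1.41-fold. That direction depended on the scaling: the change farthest from 0 h was 0.50 there but -0.62 with median scaling and -0.46 with median scaling over the tested probes. The spline test gave an adjusted p of 0.0645 and the linear change over 45 h was -0.02 (SE 0.12, adjusted p 0.928, limma). The gap between SMS and SRM, 2 synthases acting in sequence, as a difference of their changes from 0 h, came to 0.37, 1.38 and 1.47 at 3, 21 and 45 h.

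**Figure D2:**
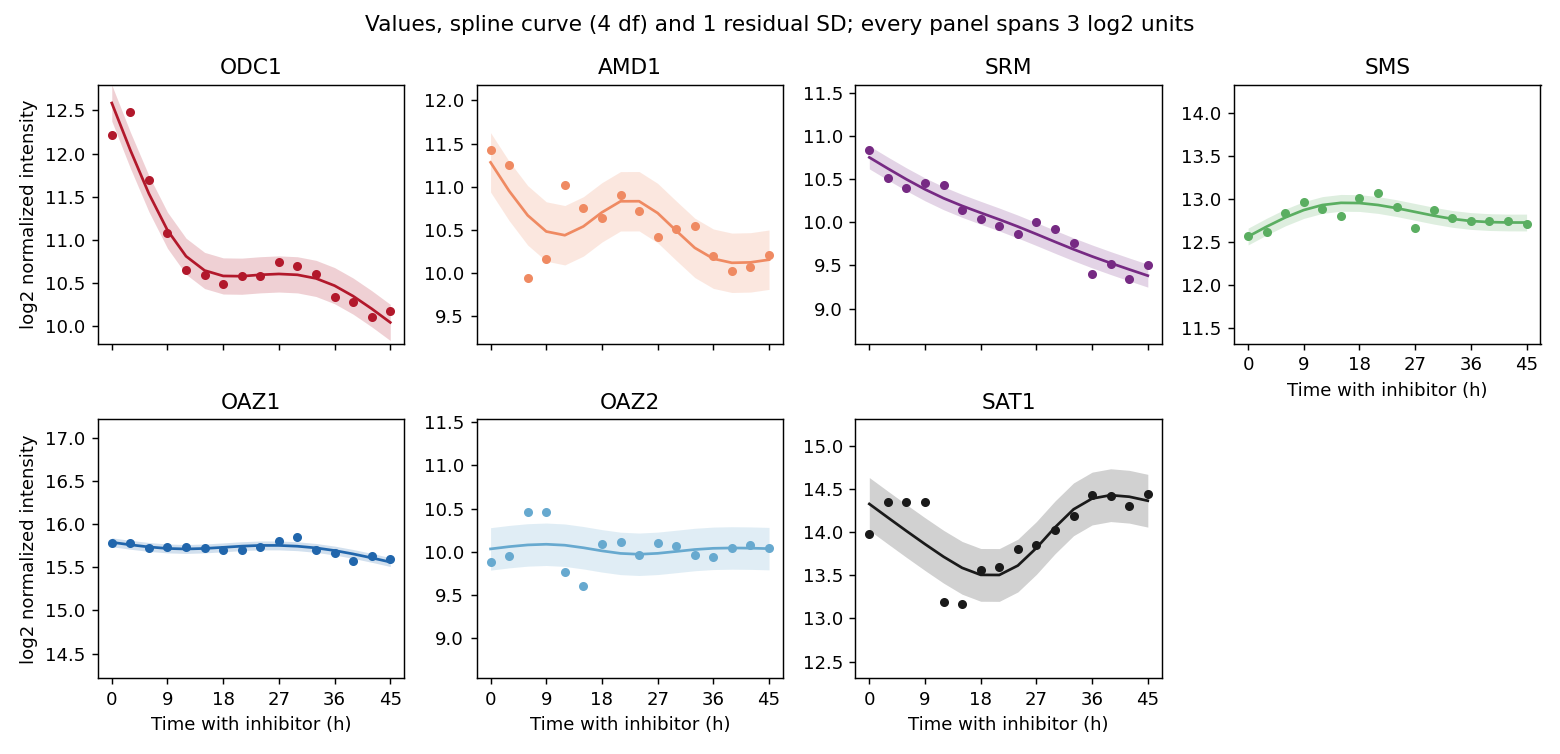
Each panel plots the log2 normalized intensity of 1 gene on the 16 arrays against hours with the inhibitor, as points, with the spline curve of 4 degrees of freedom as a line and 1 residual SD on either side as a band, and all panels span 3 log2 units. The ODC1 curve misses the 0 h point, which lies below the band, and the 3 h point, which lies above it, the AMD1 point at 6 h lies below the band and that at 12 h above it, and the OAZ1 points hardly leave a level line.

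Neither antizyme gene had a linear trend past the threshold. OAZ1 was 15.78 on the log2 scale at 0 h and ran between 15.58 (39 h) and 15.85 (30 h), a range of 1.21-fold. Its change farthest from 0 h was -0.20 there, but 0.48 with cyclic loess and -0.41 and -0.40 with the 2 median scalings. The spline passed at an adjusted p of 0.0402 and the line did not (-0.14 over 45 h, SE 0.05, adjusted p 0.0636, limma). The spline call of OAZ1 was lost without any of 7 of the 16 arrays (3, 15, 18, 27, 39, 42 or 45 h), with adjusted p from 0.0504 to 0.0701. OAZ1 was brighter on average than all but 0.262% of the probes, with intensities from 42916 to 60140 where the brightest probe reached 70425, and quantile normalization leaves little room for such a probe to move. OAZ2 gave 9.88 and 9.95 on the first 2 arrays, 10.46 and 10.45 on those of 6 and 9 h, and 9.77 and 9.60 on those of 12 and 15 h. From 18 h to 45 h it lay between 9.94 and 10.11. The change of OAZ2 farthest from 0 h was 0.59, and it was -0.60 and -0.44 with the 2 median scalings. OAZ2 gave an adjusted p of 0.986 in the spline test, and its linear change was -0.04 (SE 0.18, adjusted p 0.909).

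SAT1, the acetylating enzyme of polyamine catabolism, changed without a linear trend past the threshold. Its log2 intensity was 13.98 untreated and 14.35, 14.34 and 14.35 after 3, 6 and 9 h. It dropped by 1.16 between 9 h and 12 h, to 13.19, and was 13.17 at 15 h, 1.75-fold below 0 h. It then climbed through 13.56 and 13.59 at 18 and 21 h and 13.80 to 14.18 at 24 to 33 h, to 14.43, 14.42, 14.31 and 14.44 at 36 to 45 h. The 45 h array was 1.38-fold above 0 h. The spline passed with an adjusted p of 0.00795, while the line gave 0.45 over 45 h (SE 0.30, adjusted p 0.316, limma). The step from 9 h to 12 h is where neighbouring arrays differed most over all tested probes (root mean square step 0.33, from 0.09 to 0.31 at the other steps). OAZ2 dropped by 0.68 and AMD1 gained 0.85 at that same step, whose part in these results was not tested.

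The second comparison set synthesis against antizyme and catabolism. The median change from 0 h of the 4 synthesis genes at 6, 9, 21 and 45 h was -0.48, -0.76, -0.70 and -1.28. That of OAZ1, OAZ2 and SAT1 was 0.37, 0.38, -0.08 and 0.16 on the same arrays. On the 12 h and 15 h arrays these 3 genes were all below 0 h, with medians of -0.11 and -0.28, beside -0.41 and -0.68 for synthesis. A median of 3 genes is the value of the middle one, which was SAT1 at 6 h and OAZ2 at 45 h. From 6 h on, 3 of 4 synthesis genes were below their 0 h value at every time point, the exception being SMS. The change of SAT1 minus that of ODC1 reached 0.10, 1.51, 0.78, 1.46 and 2.51 on the arrays of 3, 9, 12, 24 and 45 h. With 1 array per time point these differences carry no error of their own.

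Within the sets of 8 arrays the trends took different forms. From 0 to 21 h, ODC1 fell by 2.10 over 21 h (SE 0.33, adjusted p 0.00938) and SRM by 0.78 (SE 0.20, adjusted p 0.0331, limma), so 2 of 7 members were called, both lower, where 11.3% of tested probes were called and 5.49% were lower. SMS gave 0.44 (SE 0.15, adjusted p 0.0800), SAT1 -0.94 (SE 0.35, adjusted p 0.0956) and AMD1 -0.28 (SE 0.47, adjusted p 0.718). The SRM call was lost without any of 5 of the 8 arrays, with adjusted p up to 0.100 (0, 3, 15, 18 or 21 h left out), and when arrays were scaled to their medians instead (0.673).

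From 24 to 45 h, 5 of 7 members were called, 4 lower and 1 higher, where 24.9% of tested probes were called, 12.8% lower and 12% higher. ODC1 fell by 0.63 over 21 h (SE 0.13, adjusted p 0.00326), SRM by 0.62 (SE 0.14, adjusted p 0.00481), AMD1 by 0.60 (SE 0.14, adjusted p 0.00715) and OAZ1 by 0.23 (SE 0.06, adjusted p 0.0134). SAT1 rose by 0.68 (SE 0.10, adjusted p 0.000333, limma). SMS gave -0.12 (SE 0.10) and OAZ2 0.03 (SE 0.11), neither past the threshold. The 5 calls held without any 1 of the 8 arrays, and those of AMD1 (0.0587) and OAZ1 (0.940) were lost with median scaling.

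**Figure D3:**
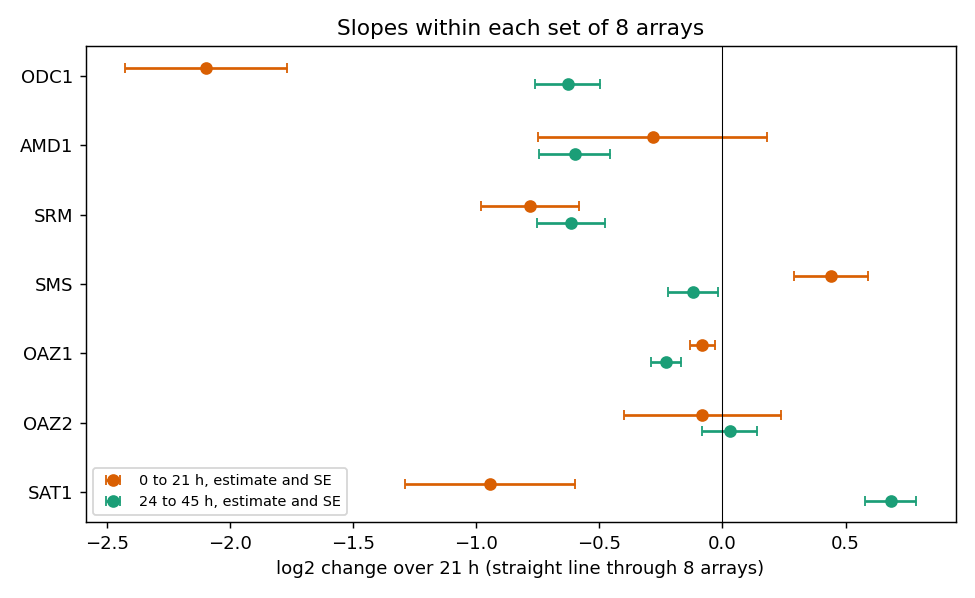
The log2 change over 21 h from a straight line through the 8 arrays of each set is plotted for each gene, with the SE as a bar, in orange for 0 to 21 h and in green for 24 to 45 h. ODC1 fell by 2.10 in the earlier set and by 0.63 in the later one, and SAT1 gave -0.94 and then 0.68.

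The slopes of the 2 sets differed for 3 of 7 members in a limma test of the difference, where 24.8% of tested probes passed. The slope from 24 to 45 h minus that from 0 to 21 h was 1.47 for ODC1 (SE 0.37, adjusted p 0.00938), 1.63 for SAT1 (SE 0.40, adjusted p 0.00786) and -0.56 for SMS (SE 0.17, adjusted p 0.0226). AMD1 gave -0.32 (SE 0.53), SRM 0.17 (SE 0.23), OAZ1 -0.15 (SE 0.08) and OAZ2 0.11 (SE 0.34), none past the threshold. With the set of 8 arrays as a block, the straight line over all 16 arrays fell by 2.92 over 45 h for ODC1 (adjusted p 0.00556) and by 0.33 for OAZ1 (0.0421), SRM passed as lower (0.00312), and AMD1 no longer passed (0.370). With sets of 4 consecutive time points as a block, no member passed the linear test, and 0 of the 12321 probes did. ODC1 gave -1.91 (adjusted p 0.579), SRM -1.16 (0.577) and OAZ2 1.52 (0.575, limma). Without adjustment, 5 members and 1049 probes had a p under 0.05 in that fit. OAZ2, which rose there, was among the 5, so this count does not describe a common fall.

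Other genes of the pathway were taken from 7 lists, of which 34 of 39 genes were on the array and 27 were tested. In the spline test 16 of the 27 passed, and in the linear test 5 passed as higher and 6 as lower, against 41.9%, 12.9% and 11.5% of all tested probes. Their median linear change was 0.02. The time-dependent genes were 5 of 5 tested for transport, 3 of 3 for hypusine, 2 of 2 each for ornithine supply and catabolism, 3 of 8 for the MYC network, 1 of 5 for S-adenosylmethionine and methionine salvage, and 0 of 2 for antizyme control.

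Ornithine decarboxylase draws on ornithine from arginine and proline. OAT, ornithine aminotransferase, passed the spline test (adjusted p 0.0211) but not the linear one (-0.61 over 45 h, SE 0.24, adjusted p 0.0768). ARG2, a mitochondrial arginase detected on 9 of 16 arrays, gave -0.08 (SE 0.03, adjusted p 0.0336), a call lost under 6 of 11 alternatives and without the 0, 3, 6 or 42 h array, with values from -0.45 (normexp) to -0.013 (array weights). Among the importers, SLC3A2, the heavy chain of several amino acid transporters, fell by 2.30 over 45 h (SE 0.45, adjusted p 0.00102). Its log2 intensity on the arrays of 0, 9, 12 and 45 h was 12.56, 12.11, 10.50 and 10.25, and its other probe fell by 2.11 over 45 h. SLC7A1, the cationic amino acid transporter that carries arginine and ornithine, fell by 0.98 (SE 0.29, adjusted p 0.0202). It went from 11.77 at 3 h to 10.77 at 6 h. The SLC7A1 call was lost with median scaling (-0.58, adjusted p 0.240), with median scaling over the tested probes (0.0737) and with array weights (-0.38, 0.104), and without the 0 h (0.104) or 3 h (0.0703) array. The SLC3A2 call was lost with array weights (-0.75, adjusted p 0.0595).

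The 2 tested genes of the catabolism list, which leaves out SAT1, went opposite ways. SMOX, spermine oxidase, fell by 1.12 over 45 h (SE 0.32, adjusted p 0.0161), with 10.23, 9.48 and 8.52 on the arrays of 6, 9 and 12 h. The SMOX call was lost with median scaling (-0.69, adjusted p 0.0808), array weights (-0.030, 0.930) and the set of 8 arrays as a block (0.133), and without the 0 h (0.0630) or 3 h (0.0523) array, and the value turned to 0.28 with sets of 4 as a block. SAT2, a relative of SAT1, rose by 1.30 (SE 0.20, adjusted p 0.000152, limma), with 9.99, 10.63 and 11.27 on the arrays of 0, 21 and 45 h. PAOX, the peroxisomal polyamine oxidase, was on the array and did not pass the detection filter.

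Spermidine also supplies the hypusine residue of the translation factor eIF5A. EIF5A itself fell by 0.58 (SE 0.09, adjusted p 0.000227), a call lost with median scaling (-0.31, adjusted p 0.318) and with the set of 8 arrays as a block (0.156). DHPS, which transfers the spermidine part to eIF5A, rose by 1.58 over 45 h (SE 0.33, adjusted p 0.00186), from 8.86 at 3 h to 10.75 at 12 h, and stayed between 10.73 and 11.04 thereafter. With array weights the DHPS change was 0.48 (adjusted p 0.0848). DOHH, which completes hypusine and is listed as HLRC1, fell by 0.36 (SE 0.05). Of the antizyme control genes, AZIN1, a decoy that frees ornithine decarboxylase from antizyme, gave 0.44 (SE 0.20, adjusted p 0.117). AHCY, which clears S-adenosylhomocysteine, passed the spline test alone (adjusted p 0.00561), going from 13.32 at 0 h to 12.73 at 18 h.

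**Figure D4:**
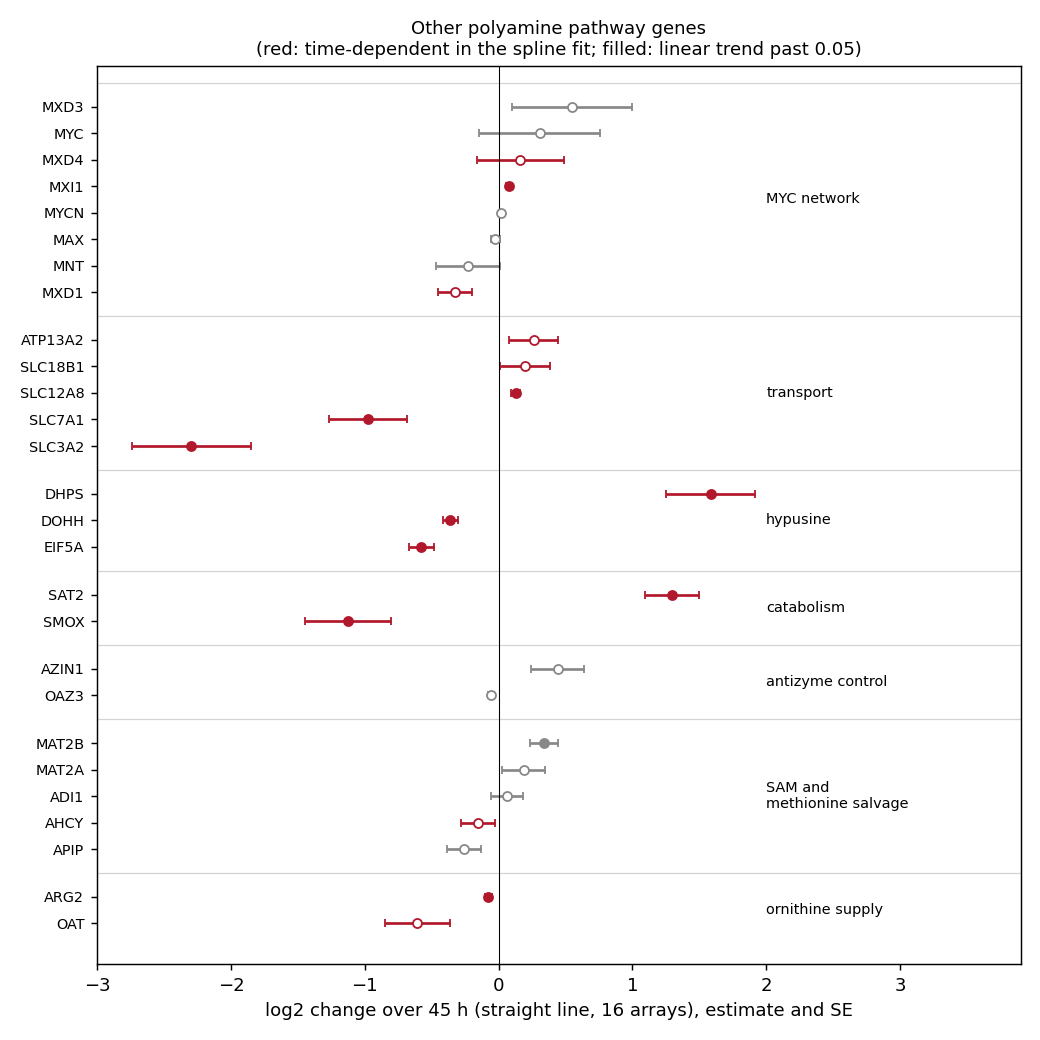
The log2 change over 45 h from a straight line through the 16 arrays, with its SE as a bar, is plotted for the 27 tested pathway genes, grouped by list, in red where the spline test passed and with filled points where the linear test passed. SLC3A2 lies farthest to the left at -2.30 and DHPS farthest to the right at 1.58.

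MYC gave no sustained trend. On the arrays of 0, 3, 6 and 45 h its log2 intensity was 12.34, 10.00, 12.51 and 12.17, so that the 3 h array lay 5.08-fold below 0 h while ODC1 was at its highest. The spline test of MYC gave an adjusted p of 0.627 (limma), and the 3 h value rests on 1 array. MXD1, a MYC antagonist, went from 8.77 at 0 h to 8.19 at 6 h and passed the spline test (adjusted p 0.000388). MXD4, another antagonist, passed it too (adjusted p 0.0205) with 11.52, 9.92 and 11.11 on the arrays of 3, 12 and 45 h.

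The genes whose courses were most like each member's were found by Pearson's r over the 16 arrays among tested genes with a log2 range of 1 or more, as a description, since all points share arrays and the passage of time. For ODC1 these were C12orf5 (r 0.99), CBS (0.98) and HMGCS1 (0.98) out of 2147 genes. For SRM they were RPS15 (0.97), RPL29 (0.96) and PHGDH (0.96). For SAT1 they were GRINA (0.92), TRIM29 (0.92) and FADS3 (0.89), all 3 lowest at 12 h, and for AMD1 they were C1orf19 (0.90), RRM2B (0.89) and GRPEL2 (0.89). The closest for OAZ1 were SCARB1 (0.78), MT1F (0.77) and PRR6 (0.77). Among the members, ODC1 and SRM had an r of 0.82, AMD1 and SRM 0.62, ODC1 and AMD1 0.54, AMD1 and SAT1 -0.53, AMD1 and OAZ2 -0.57, and OAZ2 and SAT1 0.55. The antizyme gene OAZ1 also went with the falling synthesis genes, with an r of 0.64 with SRM, 0.55 with ODC1 and 0.50 with AMD1.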

How the data were processed

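RNA of 16 MCF10HER2 cultures, 1 per time point, was measured on human Ref-8 v2 beadchips of Illumina. The authors deposited the intensity of each of 20589 probes before normalization, with a detection p-value against the negative controls of its array. The scanner software is not given in the sources used here, and the study's methods name quantile normalization and a threshold of 1.7-fold. limma's neqc (version 3.58.1, with R 4.3.3, offset 16) corrected the background, and values were quantile-normalized and taken to log2, which compresses the changes of dim probes. Tests covered the 12321 probes detected (p under 0.05) on at least 3 arrays, with the Benjamini-Hochberg adjustment over all of them. A natural cubic spline of 4 degrees of freedom (moderated F-test), a straight line over all arrays and lines within each set of 8 arrays were fitted. With no replicates, the error is the scatter about the curve, and the number of arrays limits the precision. Each gene is represented by its detected probe with the highest mean signal. In each pathway list, the 2 time-dependent genes with the largest linear change are named, along with the 3 genes most like each time-dependent member. AZIN1, MYC, DOHH and PAOX were named in addition for their roles, after their values were seen. The members and lists were chosen with earlier results of these data known. Names and promoters came from RefSeq tables (GRCh38.p14), with 6 of 7 members matched by symbol and SAT1 by synonym. The models were tested on simulated data. Alternatives covered the background correction, scaling, filter, spline, array weights, blocks, thresholds and leaving out each array.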

Additional observations from a re-analysis of the deposited data

Results flagged for a closer look

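The trends of 3 genes differed between the earlier and the later set of 8 arrays in a test of the difference itself (limma, adjusted over all tested probes). For ODC1 the log2 change over 21 h was 1.47 higher from 24 to 45 h than from 0 to 21 h (SE 0.37, adjusted p 0.00938), since it fell by 2.10 in the earlier set and by 0.63 in the later one. For SAT1 the difference was 1.63 (SE 0.40, adjusted p 0.00786), with -0.94 in the earlier set and 0.68 in the later one. For SMS it was -0.56 (SE 0.17, adjusted p 0.0226), with 0.44 and then -0.12. The background signal of the arrays also differed between the sets, and its part in these results was not tested. The SMS call was lost without the 24 h array (adjusted p 0.0844) or the 45 h array (0.0592), with median scaling (0.0897) and with median scaling over the tested probes (0.0774). The ODC1 call was lost with median scaling (0.111). The test was chosen after the data were seen.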

How the results depend on the processing

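The time dependence of ODC1 and SAT1 passed under each of 30 alternatives, and that of SRM under all but the block for sets of 4 time points (adjusted p 0.242). The linear falls of ODC1 and SRM passed under all but that block as well (0.579 and 0.577). Over the members' tested values, 600 kept their direction and their side of the threshold, 51 lost the call, 10 gained it and 32 changed sign. The number of time-dependent members went from 5 to 3 with median scaling, to 3 without the dim 9 h and 18 h arrays and to 3 with sets of 4 time points as a block, and ran from 3 (without the 3 h array) to 5 when each array was left out in turn. The members with a linear trend numbered 5 with array weights and 0 with sets of 4 time points as a block, where 5 members and 1049 of all probes had an unadjusted p under 0.05, and 2 to 4 on leaving out an array. From 0 to 21 h the count went from 2 to 1 with median scaling and to 1 with median scaling over the tested probes, an alternative chosen after seeing the data, and was 1 to 2 on leaving out an array. From 24 to 45 h it was 3 with median scaling, and 5 to 5 on leaving out an array. Slope differences were called for 1 member with median scaling, which ended the call of ODC1 (adjusted p 0.111), and for 2 to 3 on leaving out an array. The 1.7-fold count was 4 to 4 on leaving out an array. Against the median of the 16 arrays in place of 0 h, the same count of 4 split into 3 above and 1 below.

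AMD1 lost its spline call with median scaling (adjusted p 0.120), that over the tested probes (0.0749), a spline of 3 degrees of freedom (0.0783), without the 9 h and 18 h arrays (0.0563) and with the array batch as a block (0.129), and its linear call with median scaling (0.459), that over the tested probes (0.178), no detection filter (0.0541), that block (0.370) and sets of 4 as a block (0.587). OAZ1 lost its spline call with normexp (0.0700), no background correction (0.0648), median scaling (0.168), cyclic loess (0.0958), without the 9 h and 18 h arrays (0.0531) and with sets of 4 as a block (0.942), and its fall from 24 to 45 h with both median scalings, and it gained the linear call with array weights (0.0240) and the batch block (0.0421). SAT1 passed the linear test with median scaling (0.75, adjusted p 0.0279) and array weights (1.48), and SMS the spline test with 3 degrees of freedom (0.0305) and among probes detected on all 16 arrays (0.0447).

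The 45 h change of SMS was 0.19 with median scaling, 0.037 with that over the tested probes, 0.034 without the 9 h and 18 h arrays, 0.34 with the batch block and 0.69 with the sets of 4, and -0.12 to 0.019 on leaving out an array. That of OAZ2 was 0.43, 0.27, 0.018 (cyclic loess), 0.066 (without 9 h and 18 h), 0.23 (array weights) and 1.52 (sets of 4), and -0.11 to 0.084 on leaving out an array. AHCY gave 0.058 with median scaling and 0.18 with array weights, and OAT 0.16 with array weights and 0.95 with sets of 4. SMOX gave 0.28 with sets of 4, and SAT1 -0.28 with the earlier and later sets as a block. From 0 to 21 h AMD1 gave 0.15 with median scaling (-0.57 to 0.24 on leaving out an array), OAZ1 0.32 and 0.16 and OAZ2 0.42 and 0.27 with the 2 median scalings (OAZ2 -0.28 to 0.047 on leaving out an array). From 24 to 45 h OAZ2 ran from -0.013 to 0.078 on leaving out an array. The slope differences with the 2 median scalings were -0.36 and -0.19 for SRM and -0.41 and -0.24 for OAZ2 (-0.016 to 0.31 on leaving out an array). The cause of these changes was not tested.

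Over all tested probes the linear calls split into 1584 higher and 1420 lower, into 2409 and 585 with median scaling and into 1637 and 2960 with that over the tested probes. They numbered 4641 with array weights, 760 with the batch block and 0 with sets of 4, where the spline called 1209. The 1.7-fold count of 2398 was 3828 with normexp, 3629 with median scaling and 1352 at 2-fold. From 24 to 45 h, 3063 calls became 1774 with median scaling, and slope differences 3052 became 1865. No paired analysis was possible because there were no replicate numbers to pair.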
